A study of Homo sapiens with 12 samples.

Results

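The genes described here are 9 very long human genes that lie at or near common fragile sites: LRP1B, CSMD1, CSMD3, PTPRD, DLG2, FHIT, WWOX, MACROD2 and IMMP2L. They were listed by name, and their data are the deposited peaks of the repressive histone mark H3K27me3 that carry 1 of these names, at any distance. Each peak in the deposited lists is named for the gene with the nearest transcription start site (TSS). All 9 had peaks, out of 23021 gene names in the lists. Their peaks lay in 1430 of 273664 consensus intervals, which is 0.523% of the intervals and 4.87 Mb of sequence. None of these intervals belonged to more than 1 of the 9 genes, and 7 were shared with a gene outside the list. The values below are counts of ChIP-seq fragments in those intervals.

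The cells were T24, an established human bladder cancer cell line. There were 4 H3K27me3 libraries: vehicle (DMSO), 5 µM GSK-126, 5 µM fenretinide, and the combination of 5 µM GSK-126 with 5 µM fenretinide. The treated cells were exposed for 72 h, and the labels used here give no time for the vehicle. Each condition had 1 library, so no difference has a replicate check and the intervals given below cover counting error only. The labels also list 4 input and 4 RNA-seq samples, which were not analysed here. GSK-126 is an inhibitor of EZH2, the catalytic subunit of Polycomb repressive complex 2, which places H3K27me3. Fenretinide is a synthetic retinoid.

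Common fragile sites are chromosome regions that tend to break when DNA replication is slowed, and many of them lie inside very long genes that replicate late. Their long introns are frequent places of deletion in tumours. H3K27me3 marks silenced genes, most densely around CpG-rich promoters, and it also covers wide stretches of quiet chromatin at a lower level. The 9 genes have different roles. LRP1B is a large endocytic receptor of the LDL receptor family. CSMD1 and CSMD3 encode large membrane proteins with CUB and sushi domains, and CSMD1 acts as a complement inhibitor. PTPRD is a receptor-type protein tyrosine phosphatase, and DLG2 is a scaffold of the postsynaptic density. FHIT, a hydrolase of diadenosine polyphosphates, spans the FRA3B site, and WWOX, an oxidoreductase with WW domains, spans FRA16D; both have been described as tumour suppressors. MACROD2 removes ADP-ribose from proteins, and IMMP2L is a subunit of the inner mitochondrial membrane peptidase.

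In RefSeq on GRCh38.p14 the genes ran from 0.900 Mb (IMMP2L, chromosome 7) to 2.30 Mb (PTPRD, chromosome 9). The deposited annotation used 1 TSS per gene. That TSS lay within 1 kb of the RefSeq 5′ end for 6 genes. It lay 59.8 kb inside CSMD3, 1216 kb inside PTPRD and 1311 kb inside DLG2. For CSMD3, PTPRD and DLG2, intervals "near the TSS" therefore describe an internal start.

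RefSeq promoters help to place the intervals. They are shown as the 250 bases upstream of a RefSeq start on GRCh38.p14, 5′ to 3′ on the gene's strand, with CG dinucleotides (searched as CG, which reads the same on either strand) in capitals. A promoter was found for 6 of the 9 genes in the table used. Across 35116 RefSeq promoters the median was 11 CG dinucleotides, and 93.9% held at least 1. The first 3 below overlapped an H3K27me3 interval, and the last 3 did not.
PTPRD: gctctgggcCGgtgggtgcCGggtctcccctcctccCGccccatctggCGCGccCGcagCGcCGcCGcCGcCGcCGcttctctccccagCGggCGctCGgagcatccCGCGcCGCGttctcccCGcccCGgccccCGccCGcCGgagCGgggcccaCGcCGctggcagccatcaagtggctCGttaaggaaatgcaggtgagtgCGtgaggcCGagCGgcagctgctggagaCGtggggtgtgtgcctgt
MACROD2: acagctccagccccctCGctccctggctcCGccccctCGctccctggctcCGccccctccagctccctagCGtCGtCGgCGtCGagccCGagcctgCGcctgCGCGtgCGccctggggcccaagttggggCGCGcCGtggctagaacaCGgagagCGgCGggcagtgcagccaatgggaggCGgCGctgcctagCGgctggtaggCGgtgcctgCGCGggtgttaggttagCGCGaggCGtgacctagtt
DLG2: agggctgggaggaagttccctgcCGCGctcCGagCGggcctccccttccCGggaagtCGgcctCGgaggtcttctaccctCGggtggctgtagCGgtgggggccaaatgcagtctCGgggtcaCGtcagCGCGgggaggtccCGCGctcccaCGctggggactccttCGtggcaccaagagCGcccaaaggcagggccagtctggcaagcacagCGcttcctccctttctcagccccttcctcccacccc
FHIT: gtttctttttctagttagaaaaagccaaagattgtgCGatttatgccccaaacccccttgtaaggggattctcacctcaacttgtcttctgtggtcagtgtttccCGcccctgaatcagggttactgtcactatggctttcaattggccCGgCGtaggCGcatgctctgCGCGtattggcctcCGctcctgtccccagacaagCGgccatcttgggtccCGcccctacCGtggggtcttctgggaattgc
WWOX: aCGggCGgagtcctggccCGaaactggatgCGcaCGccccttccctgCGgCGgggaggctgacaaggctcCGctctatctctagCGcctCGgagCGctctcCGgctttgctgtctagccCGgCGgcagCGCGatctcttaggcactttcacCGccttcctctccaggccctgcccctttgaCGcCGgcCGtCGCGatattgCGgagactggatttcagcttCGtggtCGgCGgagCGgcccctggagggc
IMMP2L: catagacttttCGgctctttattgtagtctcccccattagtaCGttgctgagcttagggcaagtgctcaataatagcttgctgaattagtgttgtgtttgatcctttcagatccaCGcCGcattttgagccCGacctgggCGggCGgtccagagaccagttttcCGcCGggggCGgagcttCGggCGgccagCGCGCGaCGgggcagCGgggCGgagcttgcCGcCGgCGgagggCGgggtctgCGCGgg

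The PTPRD promoter, chr9:10613003-10613252 on the minus strand, held 32 CG dinucleotides, more than 90.5% of promoters. It lay in a 6.76 kb interval with a peak in all 4 libraries. That interval held 44 fragments in the vehicle library, 111 in GSK-126, 29 in fenretinide and 56 in the combination. The MACROD2 promoter, chr20:13995266-13995515 on the plus strand, held 29 CG dinucleotides. It sat in a 53.6 kb interval with 945, 738, 1149 and 719 fragments in the same order of libraries, and a called peak reached the promoter itself with GSK-126 but in no other library. DLG2 had 9 RefSeq starts in the table. The CpG-rich internal one shown, chr11:84720943-84721192 on the minus strand, held 19 CG dinucleotides. Its interval held 80 fragments in the vehicle library, 38 in GSK-126, 83 in fenretinide and 42 in the combination, and peaks covered the promoter in all libraries except GSK-126. The DLG2 promoter at the RefSeq 5′ end, chr11:85628374-85628623, is not shown. That one held 20 CG dinucleotides, overlapped no interval and lay 12.8 kb from the nearest.

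The other promoters shown lay just outside the marked sequence. The WWOX promoter, chr16:78099404-78099653 on the plus strand, had 27 CG dinucleotides and lay 3.07 kb from the end of a 92.8 kb interval upstream. The IMMP2L promoter, chr7:111562493-111562742 on the minus strand, had 24 CG dinucleotides and lay 1.03 kb from an interval of 12, 0, 8 and 3 fragments. The FHIT promoter, chr3:61251453-61251702 on the minus strand, had 11 CG dinucleotides and lay 1.46 kb from an interval of 52, 14, 67 and 21 fragments. In both of these neighbouring intervals the vehicle and fenretinide libraries held the most fragments and the GSK-126 library the fewest.

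The libraries held 15812933 to 18928836 fragments in all intervals. A ratio below is the share of those fragments in 1 library divided by the share in another, with the exact 95% counting interval in parentheses. Ratios of 2 or more were called higher and ratios of 0.5 or less lower, where 1 lay outside the counting interval. An interval needed 20 fragments in the pair of libraries compared, and a gene 50. No spike-in is named in the sources used here, so the ratios concern shares of a library and not absolute amounts. Scaling instead to the 25% of intervals with the fewest fragments per kb multiplied every GSK-126 ratio to vehicle by 0.588, a shift of -0.77 on the log2 scale. It multiplied every ratio of the combination to vehicle by 0.569 (-0.81) and of fenretinide to vehicle by 0.911 (-0.13). For the combination against fenretinide the factor was 0.625 (-0.68).

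The nearest-TSS names cover only part of each gene. Of the peaks inside introns of CSMD1, 54.6% carried its name, and the others were named RP11-134O21.1. The share was 48.9% for DLG2, 40.3% for LRP1B, 38.0% for CSMD3, 34.5% for PTPRD and 29.7% for FHIT. It was 18.2% for IMMP2L, whose remaining intron peaks were named for LRRN3, a gene nested within it. It was 17.3% for MACROD2 and 1.51% for WWOX, where 5 of 331 intron peaks were named WWOX and the rest LOC102724047 or MAF. For this reason each gene is also given over all intervals that lie inside its RefSeq span, whatever their name.

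With vehicle, the 9 genes differed in how much of their length was marked. Called peaks covered 50.6% of the span of FHIT, 45.5% of DLG2 and 27.5% of CSMD1. They covered 16.7% of WWOX, 11.6% of MACROD2, 6.89% of PTPRD and 3.70% of LRP1B, and 2.08% of CSMD3 and 2.09% of IMMP2L. The level in the intervals named for each gene followed a different order. In vehicle it was highest for WWOX, at 1.08 fragments per kb of interval per 1000000 library fragments, and lowest for CSMD3, at 0.164, with MACROD2 at 0.828, FHIT at 0.805 and IMMP2L at 0.769 below WWOX. The WWOX value came almost wholly from the 92.8 kb interval upstream of its TSS, with 1813 of 1821 fragments; that interval is shared with another gene.

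**Figure D1:**
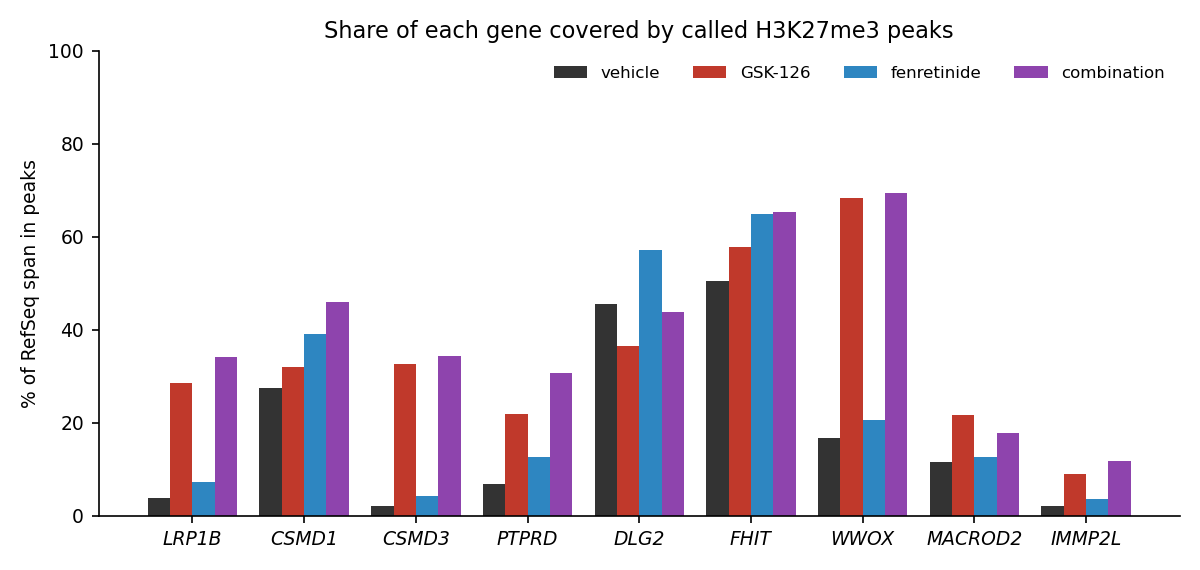
Share of each gene's RefSeq span (y axis, percent) covered by called H3K27me3 peaks in each of the 4 libraries (bars; 1 library per condition). With vehicle the share runs from 2.08% (CSMD3) to 50.6% (FHIT), and with GSK-126 it is higher than with vehicle for 8 of the genes and lower for DLG2.

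With GSK-126 against vehicle, the 9 genes held a larger share of the library's fragments as a group than with vehicle, with large differences among them, but the background scaling turned the direction of the group. Their intervals held 39899 fragments with vehicle and 53618 with GSK-126, a ratio of 1.43 (1.41 to 1.44), and of 0.838 (0.828 to 0.849) with the background scaling. Of 780 intervals with enough fragments, 258 were higher, which is 33.1%, where 25.9% of all intervals were higher. Another 42 were lower, which is 5.38%, where 21.6% of all intervals were lower. With the background scaling 141 of the 780 were higher and 183 lower, where 12.9% of all intervals were higher and 42.6% lower. Of the 258 intervals higher by library share, 138 belonged to CSMD3. By library share, the percentage higher was below 25.9% in CSMD1, DLG2, FHIT and MACROD2 and above it in the other genes. The percentage lower was under 21.6% in every gene except MACROD2. Summed per gene, only CSMD3 was higher and none was lower, where 16.2% of all genes were higher and 29.6% lower. The median log2 ratio of the 9 genes was 0.26 and that of all 20145 genes tested was -0.48.

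Among the cell-surface and synaptic genes, CSMD3 had the largest ratio. Its 267 intervals held 2654 fragments in the vehicle library, 12840 in GSK-126, 4039 in fenretinide and 11115 in the combination. Of these intervals, 172 were neither near the TSS nor in introns, and they held 2010 of the vehicle fragments and 10548 of those with GSK-126. Peaks named CSMD3 reached 1144 kb upstream of its annotated TSS. Both libraries with GSK-126 stood far above both without it. The GSK-126 ratio was 5.13 (4.92 to 5.35), and 138 of the 147 intervals tested were higher and 1 was lower. It stayed at 3.02 with the background scaling. Inside the RefSeq span, 1680 fragments with vehicle stood against 7189 with GSK-126, a ratio of 4.54 (4.30 to 4.79). By name, the CSMD3 ratio was 4.61 times that of its relative CSMD1 (4.38 to 4.84), a comparison that no scaling of the libraries can change.

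CSMD1, on the other arm of chromosome 8, had 407 intervals with 10165, 10678, 12864 and 10238 fragments with vehicle, GSK-126, fenretinide and the combination. Its GSK-126 ratio was 1.11 (1.08 to 1.14), which the background scaling took below 1, to 0.655. Of its 239 intervals tested, 24 were higher and 12 lower. Its largest fall among intervals with at least 100 fragments was an intron interval at chr8:4838454-4844654. It held 84 fragments in the vehicle library, 33 in GSK-126, 85 in fenretinide and 33 in the combination, so that the GSK-126-containing libraries stood apart from the others.

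LRP1B, the endocytic receptor, had 3319 fragments in the vehicle library, 5472 in GSK-126, 4315 in fenretinide and 5354 in the combination. The GSK-126 ratio was 1.75 (1.67 to 1.83), short of a call, and 1.03 with the background scaling. Of 106 intervals, 48 were higher and 3 lower. Over its whole RefSeq span, where 4034 fragments became 9437, the ratio was 2.48 (2.39 to 2.57) and was called. PTPRD, the receptor phosphatase, had 1813, 3239, 2555 and 3063 fragments in the same order of libraries. Its ratio was 1.89 (1.79 to 2.01), also short of a call, and 1.11 with the background scaling, with 30 of 68 intervals higher and 4 lower.

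DLG2, the synaptic scaffold, had a log2 ratio of -0.11 with GSK-126, below 0 but above the median of all genes tested, -0.48. It had 7849 fragments in the vehicle library, 6847 in GSK-126, 10419 in fenretinide and 6800 in the combination, and the GSK-126 ratio was 0.925 (0.895 to 0.956). Of its 136 intervals, 6 were higher (4.41%) and 13 lower (9.56%), where 25.9% of all intervals were higher and 21.6% lower. The ratio of PTPRD was 2.05 times that of DLG2 (1.92 to 2.19), and that of LRP1B 1.89 times (1.79 to 1.995). DLG2 was also the member whose peak coverage was lower with GSK-126, at 36.4% of the span against 45.5% with vehicle.

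For FHIT, the vehicle library held 7731 fragments, GSK-126 8723, fenretinide 9843 and the combination 8391. Its GSK-126 ratio was 1.20 (1.16 to 1.23), and 0.704 with the background scaling. FHIT was marked in long blocks: 95.1% of its interval length belonged to intervals in which every library had a peak, and its longest interval reached 95.1 kb. Of 36 intervals, 3 were higher and 2 lower.

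WWOX gave opposite results by the 2 ways of choosing intervals. By name, its 5 intervals held 1821 fragments in the vehicle library, 1059 in GSK-126, 2069 in fenretinide and 1242 in the combination, a GSK-126 ratio of 0.617 (0.571 to 0.666). Inside the RefSeq span, 62 intervals held 4288, 12638, 5407 and 11037 fragments. The ratio there was 3.13 (3.02 to 3.24) with GSK-126 and 2.79 (2.69 to 2.89) with the combination, and both were past 2, and 28 of 35 intervals were higher with GSK-126. Peaks covered 16.7% of the gene with vehicle and 68.2% with GSK-126. With the background scaling the span ratio was 1.84 and the ratio by name 0.363.

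The change along WWOX was uneven. The 300 kb upstream of the 5′ end had a GSK-126 ratio of 0.551 (0.527 to 0.576), from 5922 to 3077 fragments. Cut into 5 equal windows from 5′ to 3′, with each interval placed by its midpoint, the gene itself had ratios of 1.45, 4.54, 6.06, 2.95 and 1.34. In the middle window the vehicle library held 882 fragments, GSK-126 5042, fenretinide 1247 and the combination 4224. The 300 kb beyond the 3′ end had a ratio of 0.964 (0.928 to 1.00), so the high ratios lay within the gene and not on either side of it.

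MACROD2 had 2603 fragments in the vehicle library, 2505 in GSK-126, 3634 in fenretinide and 2531 in the combination. Its GSK-126 ratio was 1.02 (0.966 to 1.08). None of 26 intervals was higher and 6 were lower (23.1%), where 25.9% of all intervals were higher and 21.6% lower. An intron interval at chr20:14058665-14065610, about 63.3 kb from the TSS, was among the largest falls of the 9 genes in intervals with at least 100 fragments. It held 74, 26, 101 and 38 fragments, a ratio of 0.373 (0.229 to 0.590). Over the RefSeq span the ratio was 1.49 (1.44 to 1.53), with ratios of 1.14, 2.50, 2.03, 1.695 and 1.56 in 5 equal windows from 5′ to 3′. A stretch of 115 kb inside MACROD2 held no interval, the longest such gap among the 9 genes.

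IMMP2L showed a similar split to WWOX. By name it had 1944, 2255, 2195 and 2164 fragments with vehicle, GSK-126, fenretinide and the combination, and a GSK-126 ratio of 1.23 (1.16 to 1.31), which the background scaling took below 1, to 0.724. Most of these fragments lay upstream of the gene: its densest interval in vehicle, chr7:111663891-111708379, held 877, 563, 990 and 647. The gene itself was sparsely marked, with intervals over 14.6% of its span. There the vehicle library held 712 fragments, GSK-126 2245, fenretinide 1020 and the combination 2058. The span ratio was 3.34 (3.07 to 3.64) with GSK-126 and 3.13 (2.87 to 3.42) with the combination, and 1.97 and 1.78 with the background scaling.

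Over RefSeq spans, 4 of the 9 genes were higher with GSK-126 (LRP1B, CSMD3, WWOX and IMMP2L) and none was lower. Among all RefSeq genes with enough fragments, 24.8% were higher and 26.5% lower. Among the 363 genes spanning 500 kb or more, 32.5% were higher and 2.2% lower, with a median log2 ratio of 0.47. With the background scaling only CSMD3 of the 9 kept a span ratio above 2, at 2.67, and the ratios of CSMD1, DLG2, FHIT and MACROD2 were below 1.

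**Figure D2:**
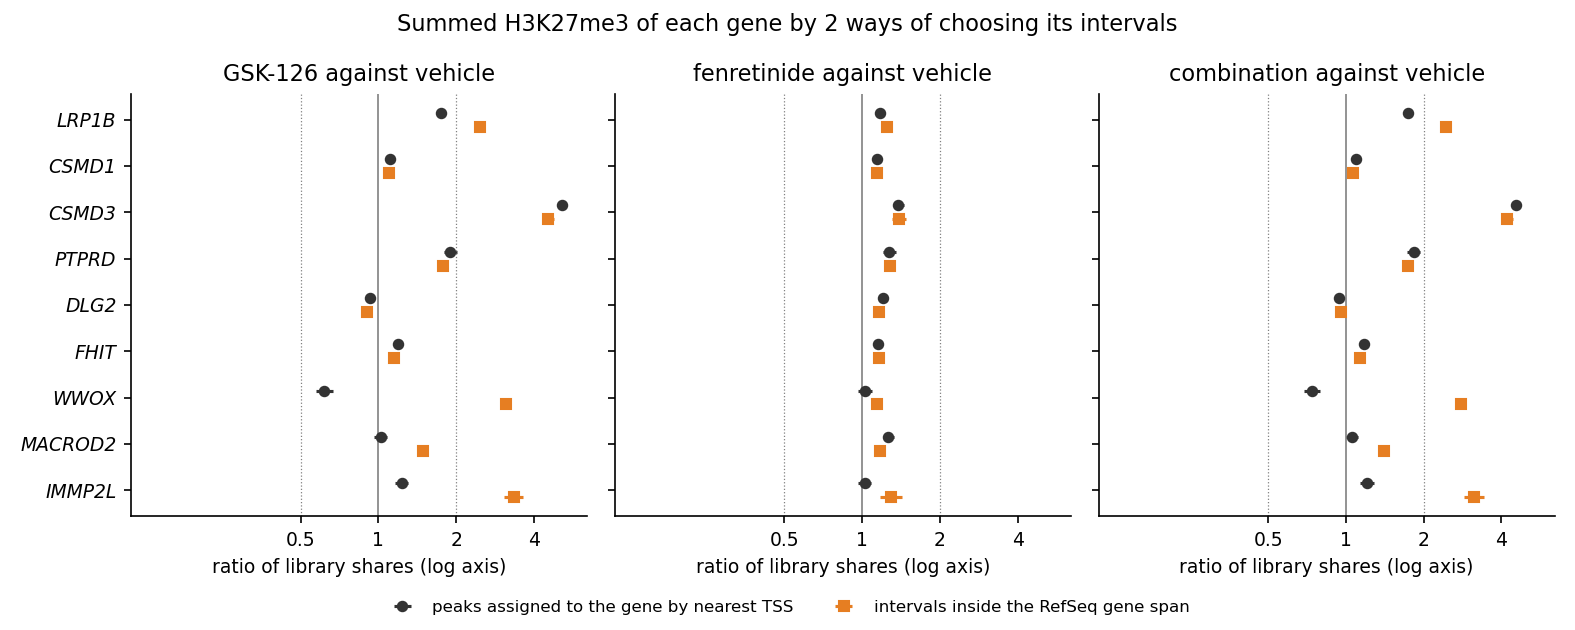
Ratio of library shares (x axis, log scale) for each gene in the 3 comparisons with vehicle, summed over intervals named for the gene (circles) or lying inside its RefSeq span (squares); bars are 95% counting intervals and dotted lines mark 0.5 and 2. With GSK-126, WWOX is at 0.617 by name and 3.13 by span, whereas CSMD3 is above 4 by both.

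Within a gene, the values near the TSS and in the introns differed. An interval counted as near the TSS where a peak of the gene in it lay within 10 kb, and all its fragments were then counted. For WWOX the only such interval was the 92.8 kb one upstream of its TSS. For MACROD2, 945 of 979 vehicle fragments came from a 53.6 kb interval that lay mostly upstream. The ratio of the intervals near the TSS can be divided by the ratio in the introns of the same gene, which removes any scaling of the libraries. For GSK-126 against vehicle this quotient was below 1, with a counting interval that excluded 1, in 7 of the 9 genes. It also depends on which libraries had the peaks that made the intervals. LRP1B had 32 intron peaks with vehicle and 113 with GSK-126, and 2 and 0 near its TSS. The part of this in the quotient was not tested, and the quotient was not repeated on intervals with a peak in all 4 libraries. Near its TSS, LRP1B had 143 fragments in the vehicle library, 42 in GSK-126, 143 in fenretinide and 61 in the combination. In its introns the same libraries held 1656, 3601, 2248 and 3354. The TSS ratio was 0.311 (0.215 to 0.442), called lower, while the intron ratio was 2.31 (2.18 to 2.45), called higher, and the quotient was 0.135 (0.0929 to 0.193). The interval over the TSS, chr2:142124998-142137050, accounted for 124 of the vehicle fragments and 39 of those with GSK-126. Among member intervals with at least 100 fragments in the pair of libraries it was the largest fall, ranked by the end of the counting interval nearest to 1, and it had a peak in every library except GSK-126. Within 50 kb of the TSS the ratio was 0.595, no longer past 0.5.

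The quotient was 0.276 (0.196 to 0.391) for IMMP2L, 0.512 (0.455 to 0.576) for FHIT, 0.563 (0.340 to 0.957) for CSMD3 at its internal start, 0.641 (0.543 to 0.755) for CSMD1 and 0.714 (0.635 to 0.804) for MACROD2. The IMMP2L value came from a TSS ratio of 1.72 and an intron ratio of 6.22. For WWOX it was 0.122 (0.0489 to 0.267), although only 8 intron fragments with vehicle and 37 with GSK-126 carried its name. In the FHIT intervals near the TSS, counted whole, 805 fragments with vehicle stood against 518 with GSK-126. Of these, 595 with vehicle and 432 with GSK-126 came from an interval upstream of the TSS, chr3:61258035-61285077. Of the 3 FHIT intervals near the TSS, 2 were lower, where 42.1% of all intervals near a TSS were. The remaining genes, DLG2 and PTPRD, were those with the annotated TSS farthest inside the gene. DLG2 had a quotient of 0.918 (0.746 to 1.13), and PTPRD one above 1, at 1.79 (1.11 to 2.98), from 24 and 76 fragments near its TSS.

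By count, 1 of the 9 genes was lower near the TSS with GSK-126 (LRP1B) and 2 were higher (CSMD3 and PTPRD, each at an internal start). Among all genes near the TSS, 41.4% were lower and 11.5% higher. With the background scaling the CSMD3 and PTPRD ratios were 1.27 and 1.98, above 1 but short of a call. In introns, 3 of the 8 genes with enough fragments were higher (LRP1B, CSMD3 and IMMP2L) and none lower, where 25.1% of genes were higher and 24.6% lower. The median log2 ratio was -0.29 near the TSS for the 9 genes and 0.66 in introns for the 8 with enough fragments, and -0.79 and -0.25 for all genes. Values near the TSS were thus below those in introns for all genes as well. With the background scaling, the intron ratio was 1.36 for LRP1B, no longer past 2, 2.26 for CSMD3 and 3.66 for IMMP2L, while the quotients keep their values.

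**Figure D3:**
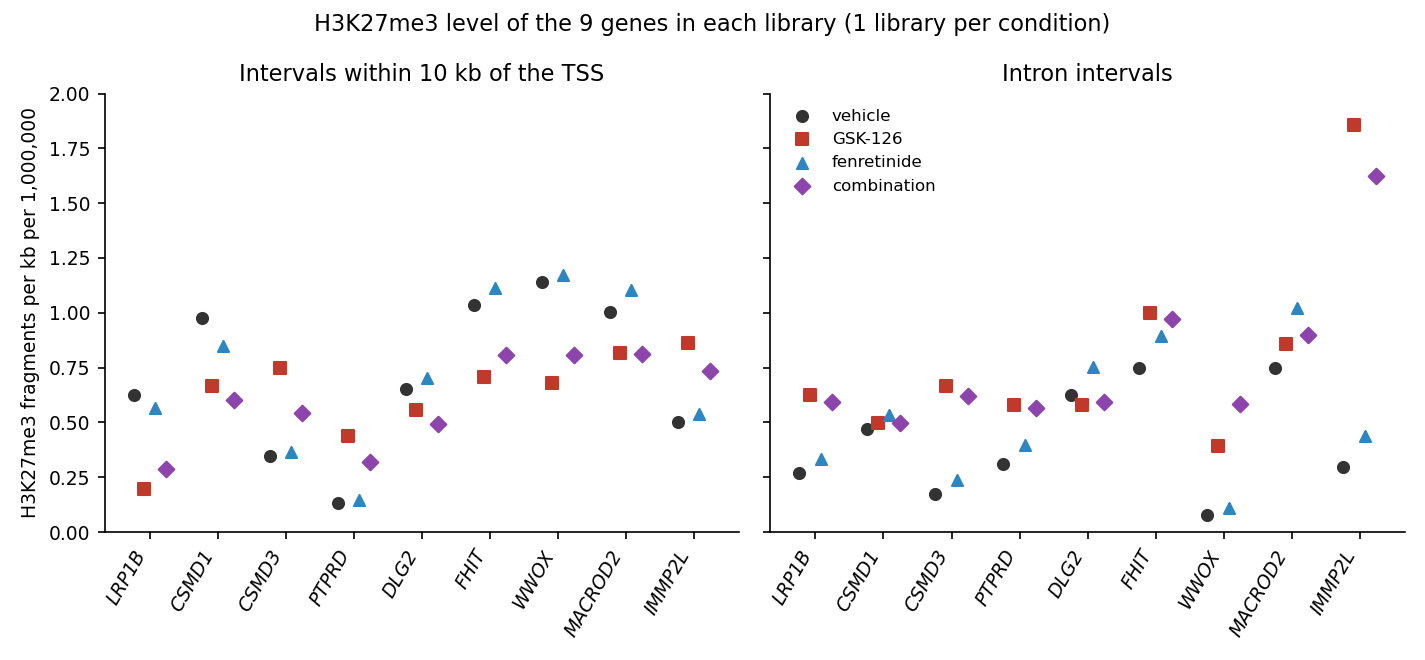
H3K27me3 level of each gene (y axis, fragments per kb per 1000000) in the 4 libraries, each point being 1 library. Left: intervals with a peak within 10 kb of the annotated TSS, counted whole. Right: intron intervals. For LRP1B the GSK-126 point is the lowest near the TSS (0.195) and the highest in introns (0.623).

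**Figure D4:**
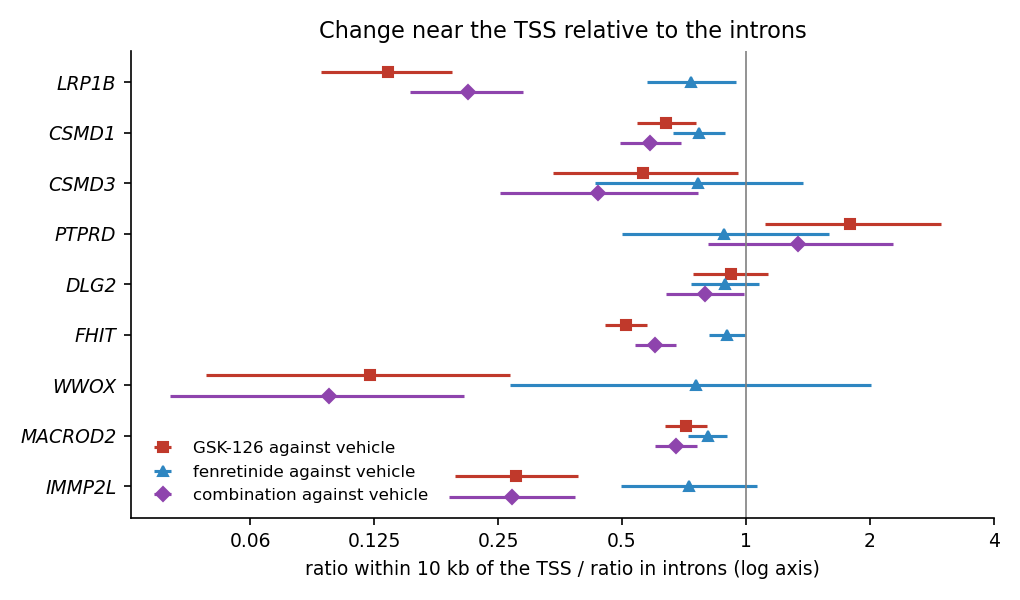
Ratio near the TSS divided by the ratio in introns (x axis, log scale) for each gene and each comparison with vehicle. Intervals with a peak within 10 kb of the TSS were counted whole. Bars are 95% counting intervals. With GSK-126 the counting intervals of 7 genes lie wholly below 1, with points from 0.122 (WWOX) to 0.714 (MACROD2). The DLG2 point is at 0.918 with a counting interval that holds 1, and PTPRD lies above 1.

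Single intervals showed the range among those named for the genes. Among those with at least 100 fragments in the pair of libraries, the largest rise with GSK-126, by the same ranking, was a CSMD3 interval at chr8:113509128-113526875, 136 kb upstream of the annotated TSS. It held 37 fragments in the vehicle library, 393 in GSK-126, 46 in fenretinide and 340 in the combination, a ratio of 11.3 (8.03 to 16.2). The next was a second CSMD3 interval, chr8:114150871-114172044, 774 kb upstream of that TSS. It held 70, 647, 116 and 535 fragments, a ratio of 9.80 (7.65 to 12.7). Both CSMD3 intervals lay outside the gene, upstream of its RefSeq 5′ end at position 113436939. After these came an IMMP2L intron interval, chr7:111499988-111507202, with 41, 322, 79 and 214 fragments and a ratio of 8.33 (6.005 to 11.8). In all 3 the fenretinide library held fewer fragments than either library with GSK-126.

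The rise of CSMD3 was not limited to a part of the locus. In the 5 windows along the gene the GSK-126 ratios were 3.24, 4.41, 3.31, 5.91 and 5.80, and in the 300 kb on either side they were 5.74 and 5.89. For LRP1B the windows gave 1.99, 2.68, 3.32, 2.48 and 2.32, with 1.21 upstream and 3.21 downstream. The FHIT windows gave 1.34, 1.27, 1.19, 1.01 and 0.874; the counting intervals of neighbouring windows overlapped among the first 3 and not after them. IMMP2L gave 6.33, 5.83, 4.13, 2.45 and 2.31, with 0.902 (0.843 to 0.966) upstream and 2.78 (2.48 to 3.11) downstream, so that its high ratios went on past the 3′ end. In DLG2 the last window was the lowest, at 0.730, from 6330 to 4356 fragments.

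**Figure D5:**
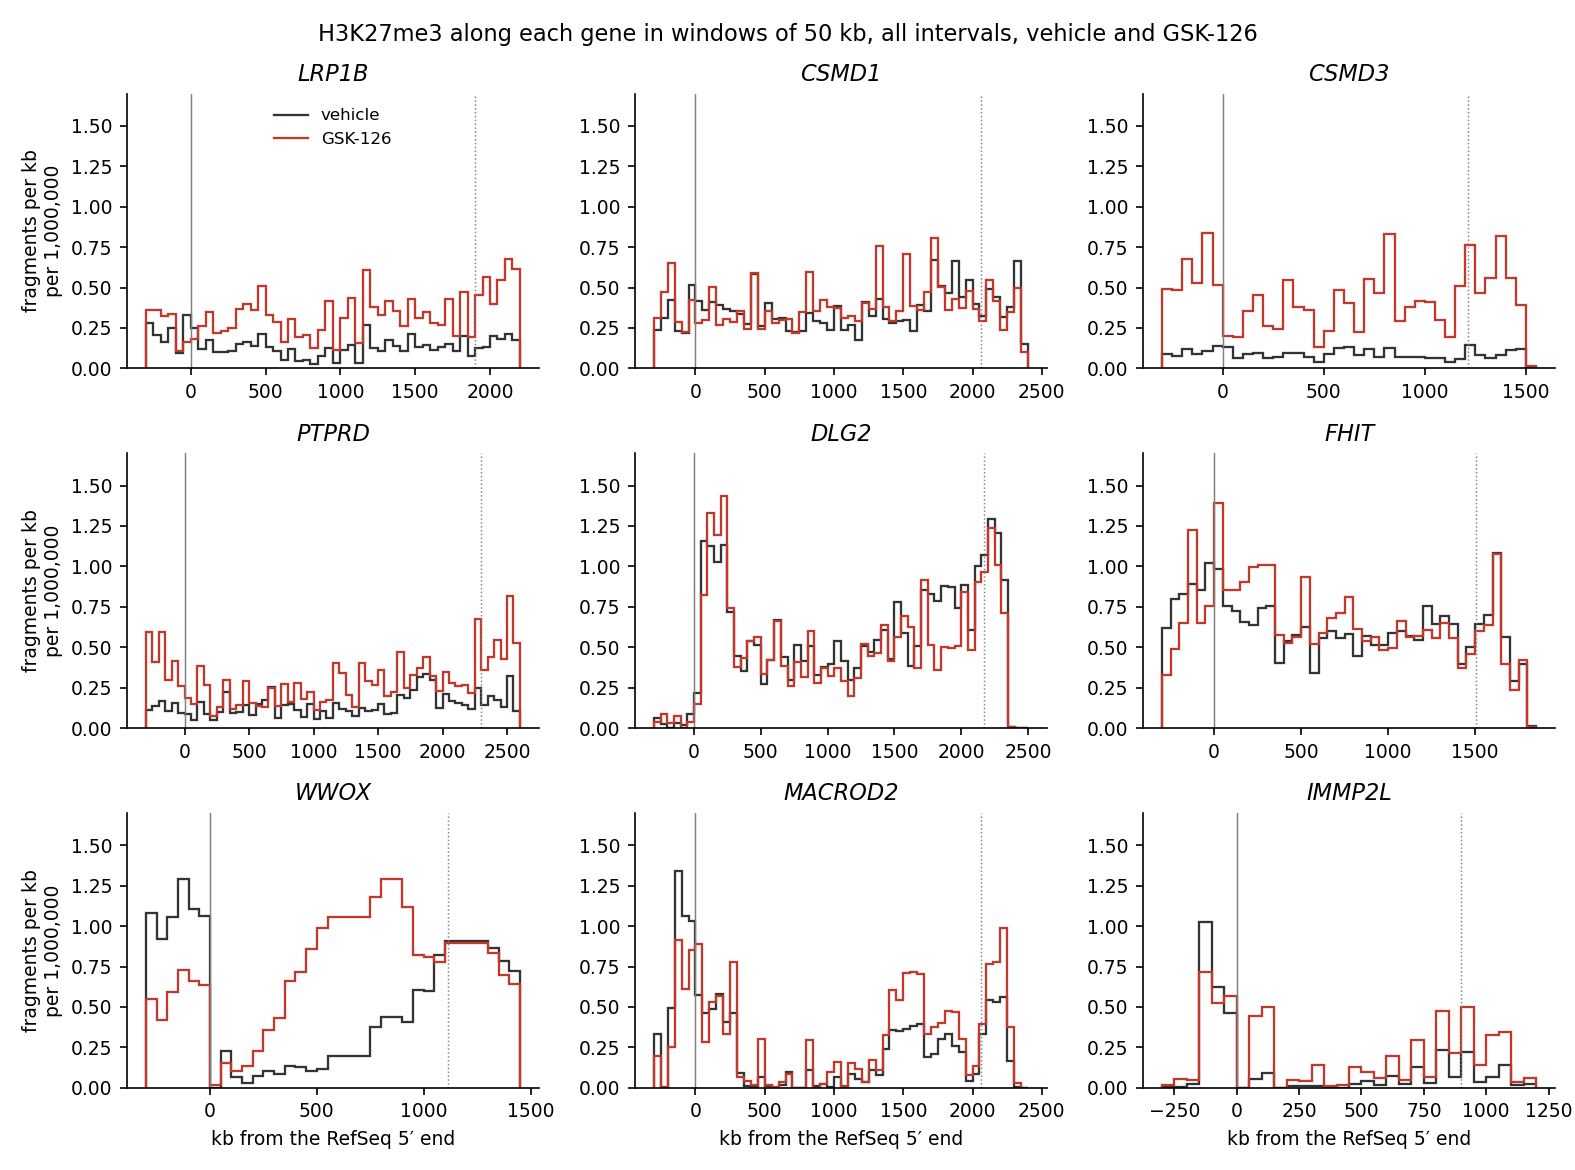
H3K27me3 along each gene with vehicle and GSK-126: fragments per kb per 1000000 (y axis) in 50 kb windows, from 300 kb before to 300 kb after the gene (x axis, kb from the RefSeq 5′ end), with the fragments of an interval spread evenly over it; grey lines mark the 5′ end (solid) and 3′ end (dotted). GSK-126 lies above vehicle along the whole of CSMD3 and inside WWOX, and below vehicle upstream of WWOX.

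How the intervals arose bears on these counts. An interval exists where at least 1 library had a peak, and 603 of the 1430 (42.2%) had a peak in the GSK-126 or combination library and in neither of the others, where 31.4% of all intervals did. CSMD3 contributed 201 of these, LRP1B 136, PTPRD 117 and CSMD1 107. Restricted to intervals with a peak in all 4 libraries, the GSK-126 ratios by name were 5.06 for CSMD3, 1.66 for LRP1B and 2.07 for PTPRD, which was then called higher. The ratios over RefSeq spans were not restricted in this way. Another 90 member intervals (6.29%) had a vehicle peak and none in the GSK-126 and combination libraries, where 14.6% of all intervals did. Of these 90, DLG2 held 27 and CSMD1 22.

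With fenretinide against vehicle the differences were small, and the counting intervals of IMMP2L and WWOX held 1. All 9 ratios were above 1, from 1.02 (0.961 to 1.09) for IMMP2L and 1.03 (0.965 to 1.096) for WWOX to 1.28 (1.20 to 1.36) for PTPRD and 1.38 (1.31 to 1.45) for CSMD3. None was called, where 0.486% of all genes were higher and 0.791% lower. The median log2 ratio was 0.23 for the 9 genes and -0.10 for all genes. Of 749 intervals, 34 were higher (4.54%) and 7 lower (0.935%), where 3.31% of all intervals were higher and 2.16% lower. The background scaling gave 22 higher and 10 lower, where 1.95% and 3.38% of all intervals were. It also took the ratios of WWOX and IMMP2L below 1, at 0.937 and 0.931, and the other 7 stayed above it. DESeq2 size factors (0.944 and 0.938) and edgeR TMM factors (0.948 and 0.942) took the same genes below 1. No member interval with at least 100 fragments passed a ratio of 2 or 0.5.

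Peak coverage with fenretinide was above that with vehicle in all 9 genes. It was 64.9% for FHIT, 57.1% for DLG2 and 39.1% for CSMD1, against 50.6%, 45.5% and 27.5% with vehicle. DLG2 was thus covered more with fenretinide and less with GSK-126. The fenretinide library also had more fragments and more peaks in all than vehicle (234815 peaks against 212277), and the part of this in the coverage was not tested. Near the TSS against introns, the quotient was below 1 in all 9 genes, from 0.726 for IMMP2L to 0.899 for FHIT. Its counting interval excluded 1 for LRP1B (0.575 to 0.944), CSMD1 (0.663 to 0.890), FHIT (0.812 to 0.996) and MACROD2 (0.725 to 0.898). Over all genes the median log2 ratio with fenretinide was also lower near the TSS, at -0.15, than in introns, at -0.004. The quotient was not computed for genes outside the 9.

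The combination library was close to the GSK-126 library. Against vehicle, which both comparisons share, the combination ratios were 4.54 (4.35 to 4.74) for CSMD3, 1.83 (1.73 to 1.94) for PTPRD, 1.75 (1.67 to 1.83) for LRP1B and 1.21 (1.13 to 1.28) for IMMP2L. They were 1.18 for FHIT, 1.09 for CSMD1, 1.05 for MACROD2, 0.939 for DLG2 and 0.739 for WWOX. CSMD3 was called higher, where 14.7% of all genes were higher and 22.1% lower. Of 768 intervals, 230 were higher (29.9%) and 35 lower (4.56%), where 24.1% of all intervals were higher and 15.8% lower. Of these 230, 133 belonged to CSMD3. The percentage higher was below 24.1% in CSMD1, DLG2, FHIT and MACROD2 and above it in the other genes. The background scaling gave 116 higher and 197 lower, where 10.3% of all intervals were higher and 40.7% lower. The ratios were then 2.58 for CSMD3 and 1.04 for PTPRD, and the other 7 were below 1. LRP1B was at 0.995, IMMP2L at 0.687, FHIT at 0.670, CSMD1 at 0.621 and MACROD2 at 0.5998, all above 1 without that scaling.

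Directly against GSK-126, the combination ratios lay between 0.884 (0.862 to 0.907) for CSMD3 and 1.20 (1.103 to 1.30) for WWOX, and none was called, where 0.287% of genes were higher and 0.353% lower. For LRP1B the ratio was 1.00 (0.963 to 1.04). Of 843 intervals, 13 were higher (1.54%) and 23 lower (2.73%), where 2.48% and 1.82% of all intervals were, and the background scaling gave 10 and 30, where 2.04% and 2.15% were. Over the RefSeq span the WWOX ratio was 0.892 (0.870 to 0.915), on the other side of 1 from its ratio by name. Against fenretinide alone, CSMD3 was called higher at 3.29 (3.18 to 3.42), where 13.4% of genes were higher and 11% lower. LRP1B reached 1.49, PTPRD 1.44 and IMMP2L 1.18, and DLG2 was at 0.781, MACROD2 at 0.834 and WWOX at 0.719. Of 835 intervals, 200 were higher (23.95%) and 60 lower (7.19%), where 18.6% and 12.1% of all intervals were. Of these 200, 128 belonged to CSMD3. The percentage higher was below 18.6% in CSMD1, DLG2, FHIT and MACROD2 and above it in the other genes. The background scaling gave 77 higher and 257 lower, where 7.26% and 36.8% of all intervals were. CSMD3 was then at 2.06, and the ratios of LRP1B, PTPRD and IMMP2L were below 1, at 0.928, 0.897 and 0.737. Those of DLG2 and WWOX passed 0.5, at 0.488 and 0.449.

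Other fragile-site and very long genes were read from a list of 43, which also held paralogs of the 9. Of these, 41 had an interval and 39 had enough fragments. With GSK-126, 14 were higher (35.9%) and 1 lower (2.56%), where 16.2% of all genes were higher and 29.6% lower. The median log2 ratio was 0.53, and that of all genes -0.48. The background scaling moves every GSK-126 log2 ratio to vehicle by -0.77, more than this median, and the list was not called with it. Among the higher ones were GMDS, an enzyme of GDP-fucose synthesis, from 58 to 318 fragments (ratio 5.81, 4.38 to 7.83), and the neural adhesion gene CNTN4, from 1382 to 7436. MACROD1, the paralog of MACROD2, had the highest ratio, 8.77 (4.68 to 18.2), from 11 to 91 fragments. DLG3, a paralog of DLG2, was the 1 lower gene, from 164 to 36 fragments (0.233, 0.158 to 0.336), and PDE4D, a cyclic AMP phosphodiesterase, was next at 0.651.

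With fenretinide none of the 39 was called and the median was 0.22. The highest ratios were 1.46 for IL1RAPL1 and 1.39 for CNTN4, and the lowest 0.673 for DLG3 and 0.847 for CDH13. With the combination 13 were higher (33.3%) and 1 lower (2.56%; DLG3, 0.330), where 14.7% of all genes were higher and 22.1% lower. MACROD1 and GMDS were highest at 5.22 and 5.17, and LRP2 was at 0.724. Genes outside both lists that span at least 500 kb had a median log2 ratio of 0.26 with GSK-126, with 71 of 240 higher (29.6%) and 11 lower (4.58%). Those spanning under 100 kb had a median of -0.70, with 1194 of 9367 higher (12.7%) and 3460 lower (36.9%). The median of the 9 members, 0.26, equalled that of the other long genes to 2 decimals.

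The genes whose 3 ratios to vehicle came closest to the median of the 9 members were LINC01146, LOC101928735, LOC401589, LUZP6 and AHCTF1P1. They were picked among 9545 genes with at least 2000 fragments, by the distance between log2 ratios over the 3 treated libraries. LINC01146, the closest, had log2 ratios of 0.25 (GSK-126), 0.22 (fenretinide) and 0.23 in the combination, beside 0.26, 0.23 and 0.23 for the members' median. The 3 ratios share the vehicle library.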

How the data were processed

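H3K27me3 ChIP-seq of T24 cells was analysed from 4 libraries, 1 per condition. The authors deposited fragment counts for 273664 consensus intervals, made with featureCounts 2.0.1 per the file headers (read pairs, unstranded, minimum overlap fraction 0.2). They also deposited HOMER-annotated peak lists per library, with a peak score whose scale is not stated. The submitters' processing notes name MACS2 2.1.0 as the peak caller. The aligner and the control used for calling are not given in the sources used here. Files use GRCh38 (hg38), per the submitters' processing notes.

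Interval starts were moved by 1 base to 1-based positions. Ratios of library shares carry exact 95% Clopper-Pearson counting intervals, and log2 ratios used a pseudocount of 0.5. Reads carry no stated molecular identifiers, so these intervals cover counting error only. Calls were tested on simulated data. Alternatives used DESeq2 1.42.0, edgeR 4.0.16 (TMM) and background scaling. Intervals were named by rule: per treated library against vehicle, the 3 largest rises and falls with at least 100 fragments, and each gene's densest vehicle interval. From the list of 43, the 2 highest and lowest ratios were named, and CNTN4 after its values were seen. Some genes of the original list are not reported here. The members, lists and rules were chosen with earlier results of these data known. RefSeq tables are of GRCh38.p14.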

Additional observations from a re-analysis of the deposited data

How the results depend on the processing

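No paired analysis was possible because each condition had 1 library, and for the same reason no replicate could be left out. The number of member intervals called is given here wherever it moved by more than 1.5 times. For GSK-126 against vehicle (258 higher, 42 lower), the background scaling gave 141 higher and 183 lower, a minimum of 50 fragments 137 and 17, peaks with a score of at least 20 gave 145 higher, intervals inside the RefSeq span 414 higher, a ratio of 1.5 gave 74 lower and a ratio of 3 gave 13 lower. The background scaling thus turned the balance of higher and lower calls. For the combination against vehicle (230, 35), the background scaling gave 116 and 197, a minimum of 50 fragments 121 and 11, a score of at least 20 gave 126 higher, the RefSeq span 391 higher, DESeq2 size factors 53 lower, TMM 55 lower, a ratio of 1.5 gave 58 lower and a ratio of 3 gave 11 lower. For fenretinide against vehicle (34, 7), DESeq2 size factors gave 22 higher, the background scaling 22 higher, a minimum of 50 fragments 10 and 0, no minimum 57 and 13, a ratio of 1.5 gave 66 higher, a ratio of 3 gave 8 and 2, the RefSeq span 55 and 11, and a score of at least 20 gave 19 and 4. For the combination against GSK-126 (13, 23), DESeq2 size factors gave 7 higher, TMM 8 higher, a minimum of 50 fragments 0 and 7, no minimum 30 and 46, a ratio of 3 gave 4 and 2, the RefSeq span 22 higher, and a score of at least 20 gave 4 and 14. For the combination against fenretinide (200, 60), the background scaling gave 77 and 257, a minimum of 50 fragments 103 and 27, a ratio of 1.5 gave 107 lower, a ratio of 3 gave 107 and 16, and a score of at least 20 gave 105 higher. Summed over the 9 genes, the background scaling took the GSK-126 ratio from 1.43 to 0.838, the combination ratio to vehicle from 1.38 to 0.787 and that to fenretinide from 1.17 to 0.733, an alternative chosen after seeing the data. Leaving out intervals shared with another gene moved none of these counts by more than 1.5 times.

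CSMD3 stayed above a ratio of 2 with GSK-126 under every alternative tried, from 2.67 (RefSeq span with the background scaling, an alternative chosen after seeing the data) to 5.12 (DESeq2 size factors). No called sum of a gene turned to the other side of 1. WWOX by name had ratios of 0.617 in all 5 intervals and 4.90 without the interval shared with another gene. The second ratio rests on 8 fragments with vehicle and 37 with GSK-126, too few for a call. Within 2 kb of the TSS there was no interval for FHIT and WWOX, and none with fragments for IMMP2L with GSK-126. Depth also limits the single intervals: 650 of the 1430 had too few fragments for the GSK-126 comparison.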
